A study of Mus musculus with 6 samples.

Results

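The comparison described here is that of RKIP-transgenic with B6 control hearts. It takes the arrays labelled RKIP-transgenic heart and those labelled B6 control heart, 2 of each, so 4 of the 6 arrays of the series. All 6 samples were heart tissue of male mice aged 2 months on a B6 strain background. RKIP-transgenic mice carried RKIP behind the alpha-MHC promoter, which is active in heart muscle cells, B6 control mice were wild type, and GRK-Inh-transgenic mice made, in the myocardium, a peptide that inhibits G-protein-coupled receptor kinases. The GRK-Inh arrays entered the model for the shared estimate of the spread and are shown beside the other groups. Of 18193 genes with a probe set, the 11254 with a mean level at or above the median of all probe sets were tested. Whether a group's arrays stand for separate animals is not given in the labels, so the p-values reflect only how far these samples spread, and that spread may be technical.

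RKIP, the Raf kinase inhibitor protein, binds RAF kinases and blocks the step from RAF to MEK in the ERK cascade. After phosphorylation by protein kinase C it releases RAF and binds the receptor kinase GRK2, which otherwise shuts off beta-adrenergic receptors. In heart muscle these routes set contractile force through cAMP and calcium, and they feed the growth response that turns on natriuretic peptide and fetal sarcomere genes.

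The mouse RKIP gene Pebp1 had signals of 9102 and 9140.4 on the RKIP-transgenic arrays and 9292 and 8766 on the B6 arrays. Its groups overlapped and it was not called (log2 fold change 0.015 ± 0.041, adjusted p = 0.866), and its other probe set was not called either (0.073, adjusted p = 0.439). Whether the transgene's transcript carries the target of these probes is not given in the labels, so Pebp1 does not check the label. Of 8 tested genes of RKIP and the receptor kinases, Grk5 was the only one called. Grk5, a kinase that switches off receptors, had signals of 828 and 870.3 on the RKIP-transgenic arrays and 596 and 540.5 on the B6 arrays (0.54 ± 0.087, adjusted p = 0.00286). Of 14 genes of the RAF, MEK and ERK cascade and its feedback, 0 rose and 1 fell, with a median log2 fold change of -0.10. The gene that fell, Dusp6, lost its call with RKIP array 1, RKIP array 2, B6 array 1 or B6 array 2 left out. Among 22 genes of adrenergic and cAMP signalling, 2 rose and 1 fell, and with those arrays left out 1, 1, 1 and 2 rose and 0, 0, 1 and 0 fell. The rise of largest size there was in Pde7a, which encodes an enzyme that breaks down cAMP, with 725 and 791 on the RKIP-transgenic arrays and 327 and 326 on the B6 arrays (1.10 ± 0.12, adjusted p = 0.000263). Of 23 genes of Gq signalling and its regulators, 2 rose and 4 fell. With those arrays left out 0, 1, 0 and 1 rose and 2, 3, 2 and 2 fell, and with a variance without trend 0 rose and 1 fell. The largest fall was in Rgs2, a brake on Gq, from 2147 and 2141 to 1284 and 1281 (-0.72 ± 0.061, adjusted p = 4.2e-05).

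Changes were many and mostly small. At an adjusted p under 0.05, 599 genes (5.32% of those tested) were called higher and 620 (5.51%) lower in RKIP-transgenic hearts, 1219 genes or 10.8% in all. Only 21 of the rises and 20 of the falls reached 2-fold in the fitted log2 values, while 82.1% of the rises and 79.5% of the falls were under 1.5-fold. The median change was 0.37 among rises and 0.38 among falls on the log2 scale, against a median of -0.017 over all genes tested. The share of genes called grew with the level, from 1.78% among the dimmest to 24.9% among the brightest of 4 equal groups of genes. The counts of called list members given below stand beside these shares, those over all genes and those by level. The RKIP-transgenic and B6 arrays did not overlap in 53.4% of all genes tested, and in 0 of the 1219 called genes did they overlap. Leaving out RKIP array 1 gave 688 calls, leaving out RKIP array 2 gave 737, and leaving out B6 array 1 or 2 gave 621 or 628, against 297 with a variance without trend. Of 228 called genes picked out by a fixed rule, 95 kept their call in each of the 17 alternative fits that tested them. Some dimmer genes, among them Adipoq, Aqp8, Cyp26b1 and Kcne1, were not tested in the fit with a level filter at the 75th percentile. A called gene whose signals are given below is one of the 95 unless a lost call is stated.

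**Figure D1:**
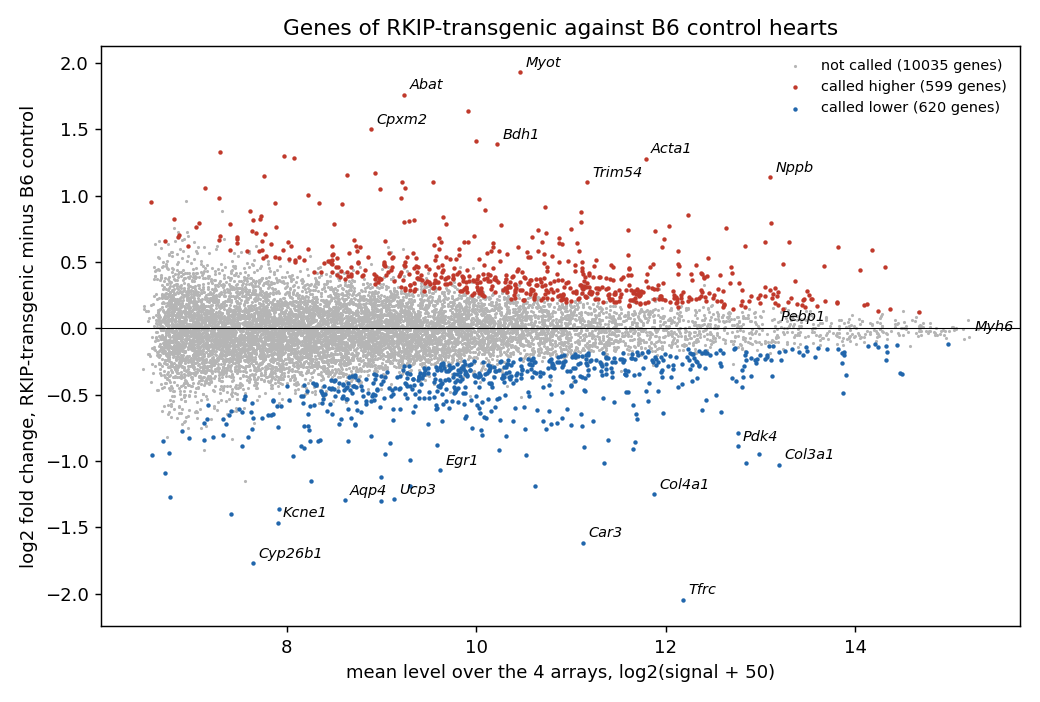
Each point is 1 of 11254 genes. The horizontal axis is its mean level over the 4 arrays as log2(signal + 50), the vertical axis its log2 fold change, RKIP-transgenic minus B6 control. Red points (599) were called higher and blue points (620) lower. Small differences pass the test mainly at high levels, Myot is the highest called point and Tfrc the lowest, and Myh6 and Pebp1 lie near 0.

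The arrays had similar median signals and similar spreads inside a group. Median signals lay between 50.3 and 55.0 after the authors' scaling, and pairs of arrays differed with an SD of 0.206 to 0.209 on the log2 scale inside a group and of 0.275 to 0.288 across RKIP-transgenic and B6 arrays. The ratio of 3' to 5' actin control signals, a sign of RNA quality, was 2.92 and 2.96 on the RKIP-transgenic arrays and 3.25 and 3.11 on the B6 arrays. The RKIP-transgenic and B6 arrays did not overlap in this ratio, and its part in the differences was not tested. Of the called genes, 719 had another probe set above the level filter, and of those 1299 other probe sets 83.2% had the same sign. The same share was 60.6% for the other probe sets of genes not called. Of the 1299, 340 were called with the same sign and 6 were called with the opposite sign. The size could differ between probe sets. For Abca1, Acsl6, Acta2, Adamts9, Alas1, Bdh1, Col4a1, Cpxm2, Dnm2, Fbln1, H2-K1, Lamc1, Nid1, Retsat and Scd1, described below, 0 of the other probe sets were called. Each of these probe sets changed by less than the value given for the gene. The 5 other probe sets of Dnm2 changed by 0.37, 0.53, 0.024, 0.082 and 0.24, that of Col4a1 by -0.33, that of Cpxm2 by 0.54 and that of Bdh1 by 0.53 on the log2 scale.

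The genes that rose most include genes of the sarcomere, of solute and ion transport and of fuel use. Myot, whose product myotilin holds actin filaments at the Z-disc, had signals of 2231 and 2136 on the RKIP-transgenic arrays and 496 and 579 on the B6 arrays (1.93 ± 0.076, adjusted p = 2.9e-07). Abat, which encodes the enzyme that breaks down the transmitter GABA, had 937 and 826 on the RKIP-transgenic arrays and 238 and 211 on the B6 arrays (1.76 ± 0.14, adjusted p = 2.4e-05). Abat was also higher than in GRK-Inh hearts (339.8 and 241), whereas Myot was not called between the transgenic groups (adjusted p = 0.323). Plet1os, named as an opposite strand transcript of Plet1, had 1451 and 1369.8 against 399 and 443 (1.63 ± 0.084). Cpxm2, a gene of the carboxypeptidase family, had 666 and 635 against 193 and 203, a ratio of mean signals of 3.29. Prune2 followed with 1404 and 1465 against 522 and 495 (1.41 ± 0.068).

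The next rises were smaller on the log2 scale. The water channel gene Aqp8 had 193 and 156 on the RKIP-transgenic arrays and 44.0 and 34.6 on the B6 arrays, so its control level lay below the level filter of 50.2. Its log2 fold change of 1.33 ± 0.17 (adjusted p = 0.000581) ran from 0.64 to 1.78 over the alternatives and was smallest with an offset of 200. Scn4b, a beta subunit of sodium channels, had 274 and 341 against 84.9 and 105 (1.30 ± 0.14, and 0.78 to 1.54 over the alternatives). The amylase gene Amy1 had 342 and 324 against 112 and 102 (1.29 ± 0.12, and 0.80 with an offset of 200), a value that near-identical amylase copies could share. Dnm2, whose product dynamin pinches off membrane vesicles, had 611 and 641 against 268 and 234 (1.17 ± 0.11, more than on its 5 other probe sets), and it was above the GRK-Inh arrays (248 and 288, difference 1.09, adjusted p = 0.000166). Acsl6, a gene that activates long-chain fatty acids, had 539.9 and 458 against 199 and 191 (1.16 ± 0.11). Fnip2, a partner of folliculin in nutrient sensing, had 987 and 943 against 406 and 439 (1.10 ± 0.083).

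The strongest falls include genes of iron uptake, retinoid turnover, ion and water channels, adipokines and matrix genes. Tfrc, the receptor that takes up transferrin-bound iron, had signals of 1795 and 1712 on the RKIP-transgenic arrays and 7504 and 7303 on the B6 arrays (-2.05 ± 0.053, adjusted p = 9.9e-09). The RKIP-transgenic signals stood above the GRK-Inh arrays (1180.0 and 1210.2, adjusted p = 0.000137). The carbonic anhydrase gene Car3 had 1019 and 1073 against 3412 and 3211 (-1.62 ± 0.070, adjusted p = 3.7e-07), while the GRK-Inh arrays stayed at 3670.4 and 3209 (difference -1.67, adjusted p = 2.7e-07). Cyp26b1, which encodes an enzyme that clears retinoic acid, had 32.6 and 48.5 against 246 and 269.7 (-1.77 ± 0.19, and -2.29 to -0.93 over the alternatives). Lrat, the enzyme that stores retinol as an ester, had 31.9 and 56.5 against 207 and 187 (-1.40 ± 0.22, and -1.85 to -0.70 over the alternatives). The RKIP-transgenic levels of both retinoid genes lay near or below the filter level of 50.2, and of 15 retinoid genes tested these were the 2 that fell, while Retsat, a retinol saturase, rose from 325 and 330.3 to 493 and 505 (0.54 ± 0.092). Aqp4, another water channel, had 176 and 176 against 505 and 503 (-1.29 ± 0.11). Kcne1, a subunit of the slow potassium current, had 93.1 and 62.5 against 297 and 303 (-1.46 ± 0.15, and -1.77 to -0.85 over the alternatives). Ptprcap, a membrane partner of the leukocyte phosphatase CD45, had 12.4 and 14.7 against 83.7 and 125 (-1.27 ± 0.22), a call lost without B6 array 2 (adjusted p 0.00282 to 0.0582 over the alternatives). The RKIP-transgenic signals of Ptprcap lay below the filter level of 50.2, so that gene passed the filter only through the other groups. Nrep had 861 and 960.4 against 2182 and 2084 (-1.19 ± 0.074).

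**Figure D2:**
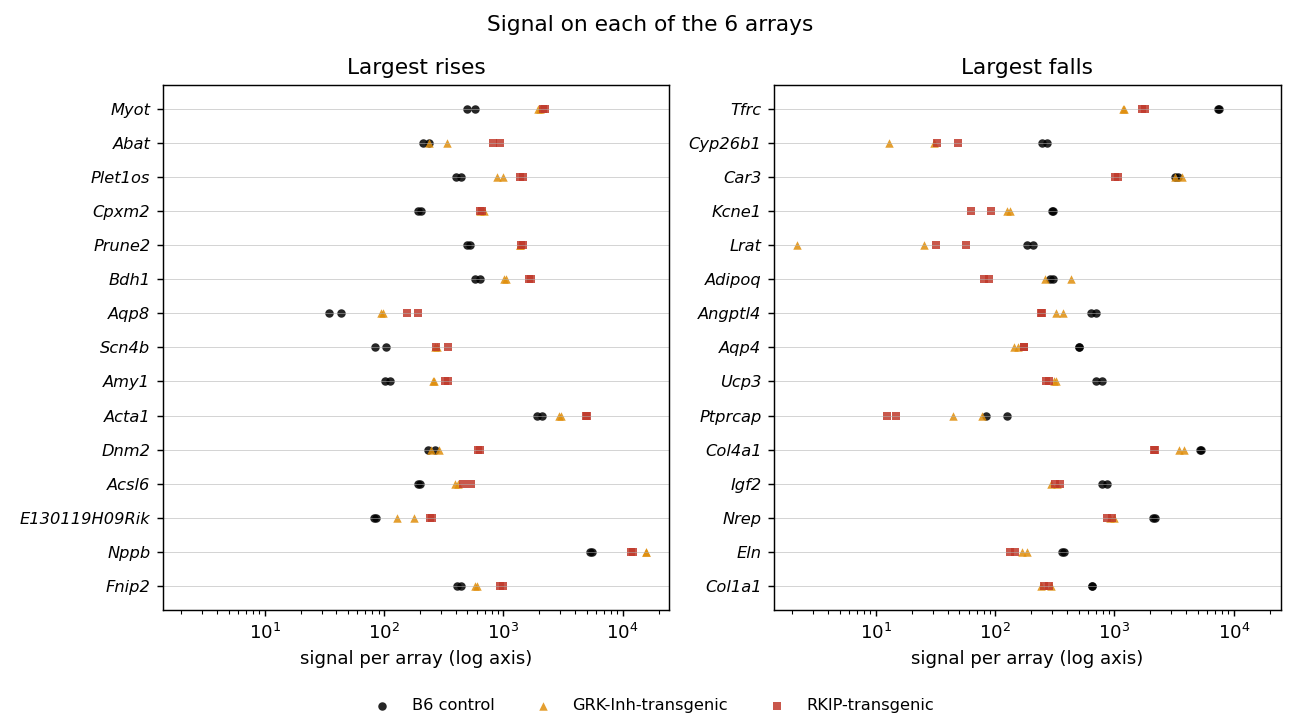
Signal on each array (log axis) of the called genes that changed most, 15 that rose and 15 that fell. Red squares are RKIP-transgenic, black circles B6 control and orange triangles GRK-Inh-transgenic arrays, 2 of each. For Abat and Dnm2 the GRK-Inh arrays lie beside the B6 arrays, and for Car3 and Adipoq likewise among the falls, while for Myot, Cpxm2, Prune2, Aqp4 and Col1a1 they lie beside the RKIP-transgenic arrays.

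More Z-disc genes rose than fell, and about as many filament genes rose as fell. The sarcomere is built of thick myosin and thin actin filaments, and the Z-disc anchors the thin filaments, senses stretch and carries signalling proteins. Of all genes tested 5.32% rose and 5.51% fell, with a median of -0.017, and of the 2814 brightest genes 375 rose and 326 fell. Of 26 tested genes of the Z-disc and costamere, 12 rose and 2 fell, with a median log2 fold change of 0.21. With RKIP array 1, RKIP array 2, B6 array 1 or B6 array 2 left out, 9, 10, 11 and 9 rose, and 4 rose with a variance without trend. Thick and thin filament genes divided, with 6 of 24 rising and 5 falling (median -0.018). Without those arrays in turn, 2, 4, 4 and 3 of them rose and 2, 3, 2 and 4 fell, and with a variance without trend 2 rose and 1 fell.

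Nrap, which anchors new myofibrils at the cell ends, had 5156 and 5279 on the RKIP-transgenic arrays and 3000.2 and 3073 on the B6 arrays (0.77 ± 0.048, adjusted p = 3.8e-06). Ankrd1, a titin-bound ankyrin repeat protein that follows mechanical load, had 21793 and 22465 against 15079.8 and 14311 (0.59 ± 0.037, adjusted p = 3.8e-06). Its relative Ankrd23 had 970.2 and 861 against 546 and 583 (0.65 ± 0.082), and the GRK-Inh arrays were higher still (1104 and 1166, adjusted p = 0.0492). The small heat shock gene Hspb7 and Synpo2l, both of the Z-disc, rose by 0.46 and 0.39 on the log2 scale, as did Bag3, a co-chaperone of filamin turnover, by 0.34. These 3 genes did not pass when the variance had no trend (adjusted p up to 0.0735, 0.0788 and 0.0948).

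The largest rises among filament genes were in Acta1 and Myh7. Acta1, the skeletal actin of the fetal heart, had 4919 and 4981 against 2122 and 1909 (1.28 ± 0.057, adjusted p = 5.0e-07), and the GRK-Inh arrays lay between at 2953 and 3036. Myh7, the slow myosin heavy chain, had 6092 and 6179 against 3485 and 3274 (0.85 ± 0.079, adjusted p = 7.3e-05), while the GRK-Inh arrays were at 3735 and 3045 (difference 0.85, adjusted p = 8.7e-05). The adult myosin gene Myh6 had 37731 and 35906 against 39466 and 37537 and was not called (-0.064 ± 0.035, adjusted p = 0.289). In the natriuretic peptide system 1 of 8 tested genes rose, the peptide gene Nppb, with 11851 and 12185 against 5374 and 5496 (1.14 ± 0.037, adjusted p = 5.8e-08). Nppb was lower in RKIP-transgenic than in GRK-Inh hearts (15775 and 15687, difference -0.39, adjusted p = 0.000108). Acta2, the smooth muscle actin, fell from 7087 and 6699 to 4997 and 4717 (-0.50 ± 0.047, adjusted p = 7.9e-05). The atrial light chain gene Myl7 fell from 16982 and 17293 to 13313 and 13494 (-0.35 ± 0.033), which did not pass when the variance had no trend (adjusted p up to 0.0597).

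The label heart was checked on 15 cardiomyocyte markers, all above the level filter. Tnnc1 was called higher (0.13) and Actc1 lower (-0.12), the other 13 were not called, and the list's median was -0.0095. These calls were lost in 10 and 9 of the 17 alternatives, for both genes without each RKIP array and without B6 array 1 (adjusted p up to 0.314 and 0.350). The summed signal of the 15 markers was 408855 and 402975 on the RKIP-transgenic arrays and 412529 and 402564 on the B6 arrays. Of 11 tested atrial markers 3 fell. The summed signal of the 12 with a probe set was 72886 and 72659 against 79459 and 79173, of which Myl7 is itself a part. The list's median of -0.062 changed sign between alternatives, and 2, 2, 1 and 2 fell with the 4 arrays left out in turn. Of 15 skeletal muscle markers 11 were below the filter, among them the fast myosin genes Myh1, Myh2 and Myh4, while Acta1 rose. Of the 4 tested, Mybpc2, a fast-type myosin-binding protein gene, was called higher (321 and 299 against 176 and 199.5, 0.60 ± 0.12), a call lost without RKIP array 1 and without B6 array 1 (adjusted p up to 0.0685). The part of skeletal muscle RNA was not tested.

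The promoter of Acta1 is shown because it carries a CArG box, the element bound by serum response factor in muscle genes. The stretch is the 150 bases before the start site in RefSeq (GRCm38.p6), at chr8:123894776-123894925 on the minus strand, 5′ to 3′ on the gene's strand, with the CArG box in capitals.
Acta1: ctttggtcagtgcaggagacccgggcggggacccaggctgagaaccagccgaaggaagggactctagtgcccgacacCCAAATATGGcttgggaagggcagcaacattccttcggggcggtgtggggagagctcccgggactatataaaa
The box was searched on both strands of the 250 bases before the start. It was in 5 of 23 windows of the filament list and 5 of 21 of the Z-disc list. Among called members it was in 4 of 10 filament windows, those of 2 risers and 2 fallers, and in 3 of 13 Z-disc windows, those of 2 risers and 1 faller. Muscle genes are known for this element, so the shares within these lists are no result of these arrays. Over all tested genes 1.13% of windows held it, over called risers 2.18% and over called fallers 2.07%. A match is a description of letters and not a shown site. No E-box, D-box, antioxidant element, nuclear receptor element or heat shock element differed by more than 2 percentage points between risers and all tested genes. The shares were 9.70% against 8.78% for CACGTG, 2.18% against 1.78% for TTATGNAA, 11.5% against 12.2% for TGACNNNGC, 11.9% against 10.4% for AGGTCA and 6.34% against 4.85% for GAANNTTC.

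Extracellular matrix genes of several families fell. Fibrillar collagens and elastin give the heart wall its stiffness, type IV collagen, laminins and nidogens form the sheath around muscle cells and capillaries, and chaperones and crosslinking enzymes prepare collagen for use. Of 21 collagen genes 12 fell and 0 rose, with a median log2 fold change of -0.57 against -0.017 over all genes. With RKIP array 1, RKIP array 2, B6 array 1 or B6 array 2 left out 11, 11, 11 and 12 fell, and 10 fell with a variance without trend. The fall was seen in fibrillar, network and beaded collagens.

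Col3a1, a main fibrillar collagen of the heart, had 6065 and 6109.7 on the RKIP-transgenic arrays and 11888 and 13061 on the B6 arrays (-1.03 ± 0.050, adjusted p = 7.5e-07). Its type I partners were at 5052 and 5043 against 8642 and 8840.4 for Col1a2 (-0.79 ± 0.041) and at 282 and 259 against 646 and 646 for Col1a1 (-1.12 ± 0.11). Col5a2, which sets fibril width, had 903 and 991 against 1924 and 1846 (-0.96 ± 0.070). In each of these 4 genes the GRK-Inh arrays were close to the RKIP-transgenic ones, with differences of -0.019, 0.065, 0.014 and -0.052 on the log2 scale and adjusted p from 0.387 to 0.961. Col4a1, the basement membrane collagen, had 2191 and 2143 against 5205 and 5258 (-1.25 ± 0.054, adjusted p = 3.7e-07) and lay below the GRK-Inh arrays (3504 and 3841, adjusted p = 1.3e-05). Its partner Col4a2, whose gene starts next to that of Col4a1, had 1570.2 and 1473 against 2817 and 2923 (-0.89 ± 0.058), with no call between the transgenic groups (adjusted p = 0.121). The RefSeq windows of these 2 genes share 78 bases. Col6a3, of the beaded filaments, had 818 and 754 against 1545 and 1511 (-0.92 ± 0.075).

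Genes that process collagen also fell, 6 of 19 with 0 rising (median -0.24), and 6, 3, 3 and 4 fell without the 4 arrays in turn and 3 with a variance without trend. Serpinh1, the chaperone of newly made collagen, had 2271 and 2286 against 4035 and 4317 (-0.86 ± 0.051, adjusted p = 3.0e-06). Sparc, a collagen-binding matrix protein, had 5595 and 5333 against 10878 and 10276 (-0.95 ± 0.046, adjusted p = 7.5e-07). The basement membrane and adhesion genes gave 9 falls and 0 rises of 23 (median -0.28), with 5, 6, 5 and 4 falling without the 4 arrays in turn and 4 with a variance without trend. The nidogen gene Nid1 had 2435 and 2619 against 3767 and 3827 (-0.58 ± 0.061), the fibronectin gene Fn1 604 and 618 against 928 and 836 (-0.49 ± 0.081) and the laminin gene Lamc1 482 and 505 against 697 and 734 (-0.49 ± 0.085).

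Matricellular and TGF-beta genes gave 9 falls and 1 rise of 39 (median -0.14), with 7, 8, 6 and 5 falls without the 4 arrays in turn and 5 with a variance without trend. The elastin gene Eln had 134 and 147 against 365 and 377 (-1.15 ± 0.12, and -1.31 to -0.75 over the alternatives). Ccn2, a growth factor of the matrix, had 1901 and 1846 against 3404 and 3396 (-0.84 ± 0.047, adjusted p = 1.7e-06), the reverse of the GRK-Inh arrays at 7427 and 7676. Periostin (Postn), a marker of activated fibroblasts, fell from 2169 and 2181 to 1559 and 1528 (-0.48 ± 0.056). Among proteases and inhibitors 2 of 19 rose and 2 fell. Mmp2, a gelatinase gene, fell from 1055 and 1079 to 689 and 712 (-0.57 ± 0.073), Adamts9 fell from 323 and 301 to 182 and 154 (-0.73 ± 0.12, and -0.84 to -0.48 over the alternatives), and the inhibitor gene Timp4 rose from 827 and 787 to 1187 and 1168 (0.52 ± 0.061, adjusted p = 0.000388).

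Some markers of the cells that make matrix and vessels fell as well. In whole hearts, fewer cells of a type and less RNA per cell cannot be told apart. Of 20 fibroblast markers, all tested, 9 fell and 0 rose (median -0.28), and their summed signal was 75295 and 77996 on the RKIP-transgenic and 94462 and 95646 on the B6 arrays. Without the 4 arrays in turn 8, 9, 7 and 7 fell, and 6 with a variance without trend. Of the markers that fell, Col1a1, Col1a2, Col3a1, Lox, Lum and Postn are also counted in the matrix lists. Only Fbln1, Pdgfra and Dpt were not among the fallers of those lists. Fbln1, a marker that encodes the matrix protein fibulin, had 752 and 802 against 1234 and 1136 (-0.58 ± 0.078). Of 14 smooth muscle and pericyte markers 6 fell and 0 rose (median -0.17, summed signal 33134 and 33250.3 against 39185 and 38199), but 2, 4, 2 and 2 fell without the 4 arrays in turn and 1 with a variance without trend. Of 19 endothelial markers 4 fell and 0 rose (median -0.15, summed signal 22965 and 23131 against 27385 and 27049), and 2, 3, 3 and 2 fell without the 4 arrays in turn and 1 with a variance without trend. Aplnr, the apelin receptor of capillary endothelium, had 1837 and 1520.3 against 3669 and 3221 (-1.02 ± 0.093, adjusted p = 6.8e-05). The part of these cells in the fall of matrix genes was not tested.

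**Figure D3:**
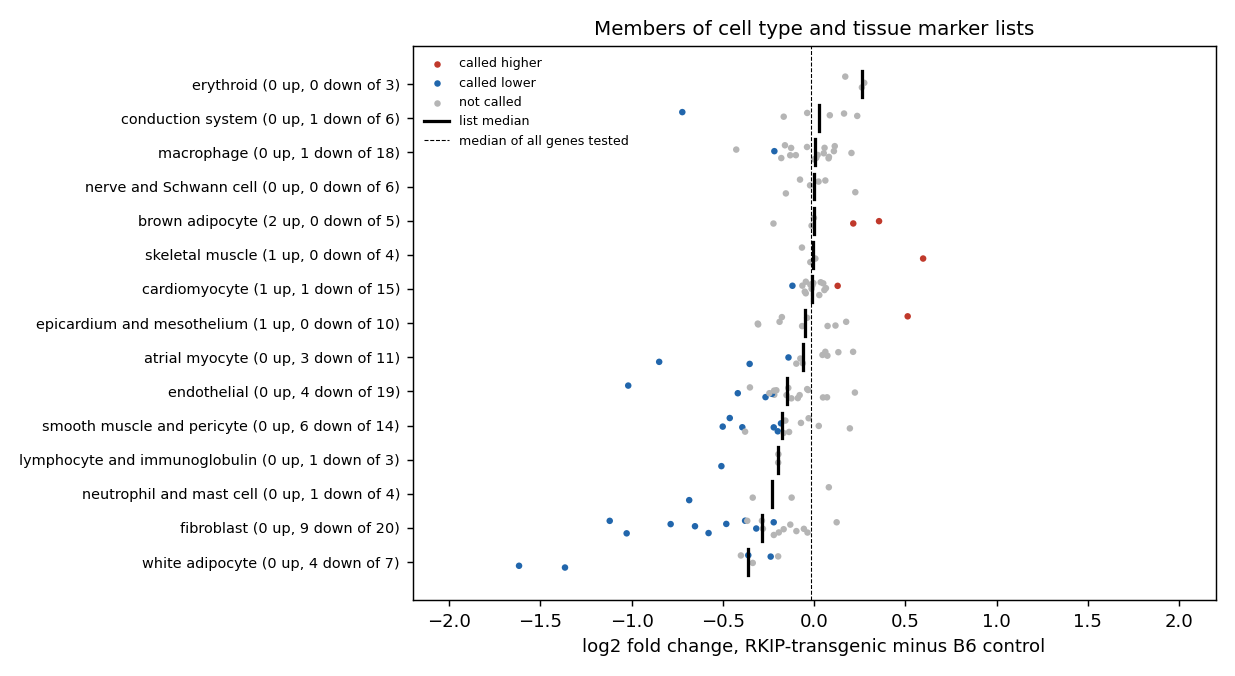
Log2 fold change, RKIP-transgenic minus B6 control, of every tested member (1 point each) of 15 marker lists with 3 or more tested members. Red and blue points were called higher and lower, grey points were not called, bars are list medians and the dashed line is the median of all genes tested (-0.017). Fibroblast, smooth muscle and white adipocyte markers lie mostly left of 0, and cardiomyocyte and macrophage markers lie around it.

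A part of the interferon-stimulated and MHC class I genes fell. These genes carry the antiviral state and present peptides to T cells, and they are switched on by STAT and IRF factors. Of 30 tested genes 10 fell and 0 rose (median -0.31). With RKIP array 1, RKIP array 2, B6 array 1 or B6 array 2 left out, 6, 8, 5 and 7 fell, and 4 fell with a variance without trend. Rsad2, the antiviral enzyme viperin, had 943 and 996 on the RKIP-transgenic arrays and 1600.3 and 1612 on the B6 arrays (-0.70 ± 0.062, adjusted p = 5.6e-05), and it was below the GRK-Inh arrays at 1461 and 1459 (adjusted p = 0.000292). Ifi27l2a had 1376 and 1469 against 2181 and 2437 (-0.68 ± 0.082). The class I heavy chain gene H2-K1, whose signal near-identical class I genes could share, had 2484 and 2520.0 against 3578 and 3448 (-0.48 ± 0.048), while the GRK-Inh arrays were at 3859.8 and 3861 (difference -0.62, adjusted p = 2.2e-05). Ifit1 and Ifit3, which bind viral RNA or its sensors, changed by -0.51 and -0.43, calls lost when any of the 4 arrays was left out, without a filter or when the variance had no trend (adjusted p up to 0.194 and 0.164).

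The promoters of 3 of these genes are shown for the interferon response element they share, a pair of TTTC runs that are 2 bases apart, in capitals. They are the 150 bases before the start in RefSeq (GRCm38.p6), 5′ to 3′ on the gene's strand: Rsad2 at chr12:26456453-26456602 (minus strand), Ifit1 at chr19:34640739-34640888 (plus strand) and Ifit3 at chr19:34583379-34583528 (plus strand).
Rsad2: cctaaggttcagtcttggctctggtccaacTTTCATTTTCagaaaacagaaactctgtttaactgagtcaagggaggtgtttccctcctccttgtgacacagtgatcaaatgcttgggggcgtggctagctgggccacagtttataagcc
Ifit1: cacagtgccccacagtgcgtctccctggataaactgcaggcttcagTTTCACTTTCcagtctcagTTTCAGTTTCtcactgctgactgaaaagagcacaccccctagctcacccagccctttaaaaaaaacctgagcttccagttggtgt
Ifit3: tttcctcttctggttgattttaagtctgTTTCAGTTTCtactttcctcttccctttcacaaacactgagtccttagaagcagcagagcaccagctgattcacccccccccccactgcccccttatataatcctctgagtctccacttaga
The element occurs once in the Rsad2 and Ifit3 stretches and 2 times in that of Ifit1. Searched on both strands of 250 bases, it was in 11 of 26 windows of the list and in 5 of the 9 windows of its called members. Over all tested genes 2.53% of windows held it, with 2.38% of called risers and 3.11% of called fallers. The list was chosen for its known link to interferon, so the share within it is no result of these arrays. This element and the CArG box were searched after the values had been seen.

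Most lymphocyte markers were below the filter, and macrophage markers were above it. Of 18 macrophage markers 1 fell and 0 rose (median 0.0055, summed signal 26194 and 24552 against 25139 and 26279), and the sign of that median changed between alternatives. Of 16 lymphocyte markers 3 were tested and 9 with a probe set were below the filter, among them the T cell genes Cd3e, Cd4 and Cd8a and the B cell gene Cd79a. The part of immune cell RNA in the fall of interferon genes was not tested.

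Some genes of GABA, ketone and branched-chain amino acid use rose, and genes that respond to PPAR-alpha changed in both directions. The heart burns mainly fatty acids, takes up glucose and ketones as supply changes, and tunes these routes through PPAR-alpha and its coactivators. Of 26 genes for ketone, GABA and branched-chain amino acid use, 6 rose and 0 fell (median 0.11), with 5, 3, 6 and 4 rising without the 4 arrays in turn and 2 with a variance without trend. Besides Abat, the largest rise was in Bdh1, the mitochondrial enzyme that opens ketone oxidation, with 1719 and 1626 on the RKIP-transgenic arrays and 638 and 581 on the B6 arrays (1.39 ± 0.073, adjusted p = 1.2e-06). Bdh1 was above the GRK-Inh arrays too (1048 and 1022, adjusted p = 0.000292). Bckdha, a subunit of the branched-chain keto acid dehydrogenase, rose by 0.31, which did not pass when the variance had no trend (adjusted p up to 0.0788).

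Of 25 PPAR-responsive genes, 6 rose and 5 fell. Without the 4 arrays in turn 5, 1, 1 and 3 rose and 6, 5, 5 and 5 fell, and with a variance without trend 0 rose and 4 fell. Angptl4, an inhibitor of lipoprotein lipase, had 240.3 and 245 against 706 and 638 (-1.30 ± 0.10, adjusted p = 2.6e-05). Ucp3, a mitochondrial carrier, had 282 and 267 against 699 and 789 (-1.29 ± 0.10, adjusted p = 2.1e-05). Pdk4, the kinase that shuts pyruvate out of oxidation, had 4749 and 4863 against 8971 and 8888 (-0.89 ± 0.041, adjusted p = 5.1e-07), and the GRK-Inh arrays at 11115 and 11626 lay on the other side of the controls. The coactivator gene Ppargc1b fell from 2979.8 and 2888 to 1791 and 1777 (-0.70 ± 0.053). Ppara itself rose by 0.38, which did not pass when RKIP array 2 or B6 array 1 was left out or when the variance had no trend (adjusted p up to 0.0792). Of 28 genes of fatty acid uptake and beta-oxidation 5 rose and 0 fell, all by 0.62 or less on the log2 scale (list median 0.057), but 2, 3, 1 and 3 rose without the 4 arrays in turn and 0 with a variance without trend. Of 45 subunits of oxidative phosphorylation 0 rose and 1 fell, with changes between -0.17 and 0.10 and a median of -0.0011.

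Of the 2814 brightest genes 375 rose and 326 fell, beside 5.32% and 5.51% of all genes tested. Of 35 genes of glucose uptake, glycolysis and glycogen 9 rose and 5 fell. Without the 4 arrays in turn 6, 6, 7 and 6 rose and 2, 2, 2 and 3 fell, and with a variance without trend 3 rose and 1 fell. Pfkfb2, the heart enzyme that makes the activator of glycolysis, had 766 and 769.8 against 362 and 325 (1.06 ± 0.090, adjusted p = 4.2e-05), above the GRK-Inh arrays at 448 and 436 (adjusted p = 0.000653). The glucose transporter gene Slc2a1 had 1184 and 1073 against 671 and 726 (0.65 ± 0.079). Ppp1r3c, which targets a phosphatase to glycogen, had 4896 and 4959 against 3189.8 and 2953 (0.67 ± 0.049), and the glycogen phosphorylase gene Pygm rose by 0.32, which did not pass when the variance had no trend (adjusted p up to 0.0735).

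Lipid storage and synthesis genes also split. Of 23 triglyceride genes 5 rose and 2 fell. Pnpla2, the first lipase of stored fat, rose from 1685 and 1748 to 2372 and 2438 (0.48 ± 0.056), and the droplet coat gene Plin3 from 1636 and 1476 to 2793 and 2688 (0.80 ± 0.065). Mgll, the lipase of the last step, fell from 2338 and 2263 to 1672 and 1710.1 (-0.43 ± 0.053). Of 18 fatty acid synthesis genes 3 rose and 6 fell, with 2, 0, 1 and 2 rising and 3, 3, 3 and 2 falling without the 4 arrays in turn and 1 with a variance without trend. Scd1, which desaturates fatty acids, had 437 and 472 against 803 and 665 (-0.63 ± 0.093), with the GRK-Inh arrays at 1551 and 1525. Abca1, the cholesterol exporter, had 1337 and 1361 against 2334 and 2149 (-0.71 ± 0.067, adjusted p = 8.3e-05), in a list of 23 cholesterol genes where 1 rose and 2 fell, and 0, 0, 0 and 0 rose and 1, 1, 1 and 1 fell without the 4 arrays in turn.

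White adipocyte markers were lower beside the changes of lipid genes. Of 7 tested, 4 fell and 0 rose (median -0.36, summed signal 20223 and 21178 on the RKIP-transgenic and 27469.7 and 26212 on the B6 arrays), with 4, 3, 3 and 3 falling without the 4 arrays in turn and 2 with a variance without trend. The adipokine gene Adipoq had 88.8 and 80.8 against 288 and 307, and 434 and 259.8 on the GRK-Inh arrays (-1.37 ± 0.18, and -1.64 to -0.80 over the alternatives). The fat cell genes Lep and Cidec were below the filter but are in that summed signal. Of 5 tested brown adipocyte markers 2 rose and 0 fell (1, 0, 0 and 1 rose without the 4 arrays in turn), and Ucp1 was below the filter. The part of fat cell RNA in the changes of lipid genes was not tested.

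**Figure D4:**
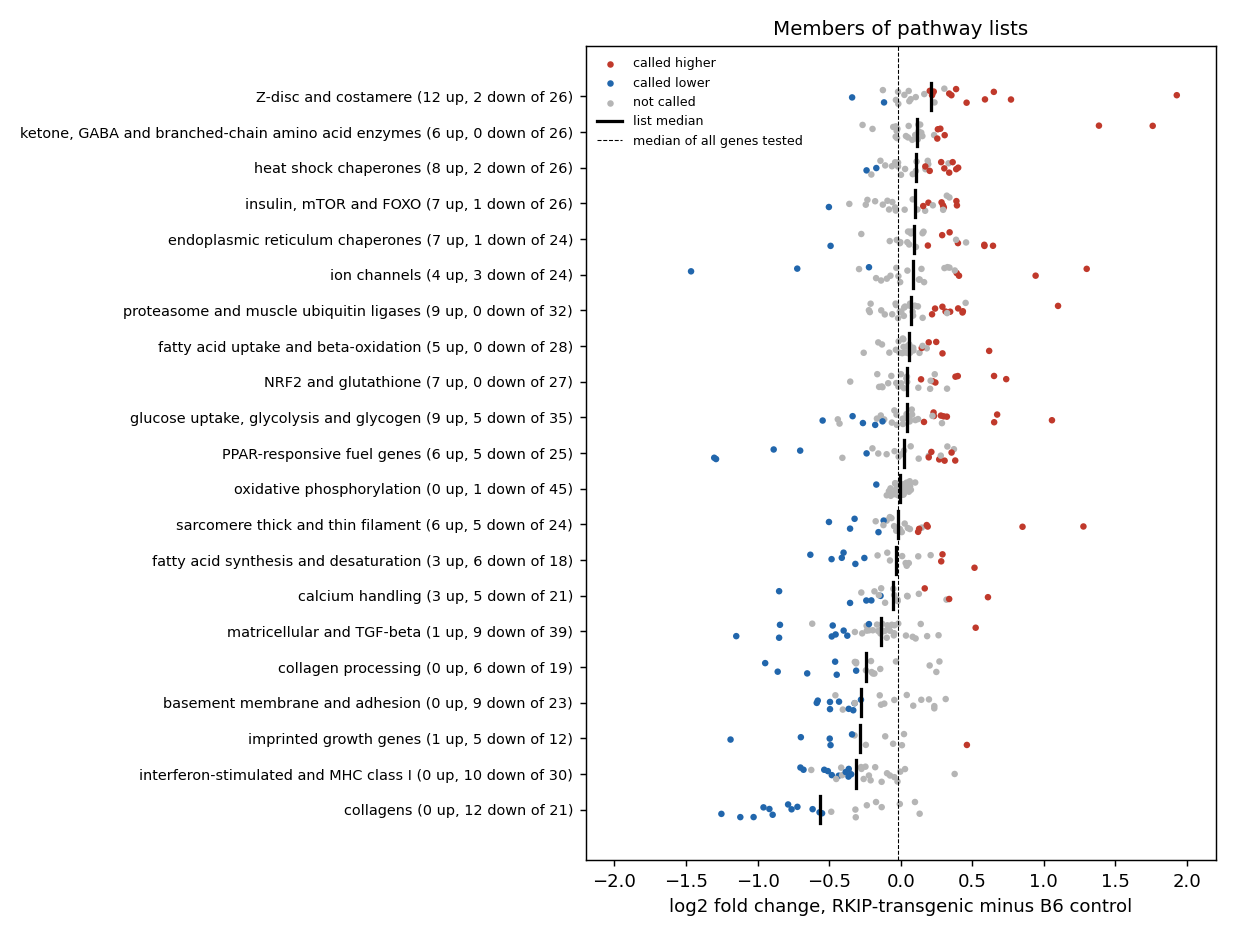
Log2 fold change, RKIP-transgenic minus B6 control, of every tested member (1 point each) of 21 pathway lists, ordered by median. Red and blue points were called higher and lower, bars are list medians and the dashed line is the median of all genes tested (-0.017). Collagens have the lowest median of the lists drawn (-0.57) and Z-disc genes the highest (0.21), while oxidative phosphorylation genes lie within 0.17 of 0.

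More protein turnover genes rose than fell. Of all genes tested 5.32% rose and 5.51% fell, and of the 2814 brightest genes 375 rose and 326 fell. The muscle ubiquitin ligases tag sarcomere proteins for the proteasome, chaperones refold damaged ones, and the endoplasmic reticulum has its own set for secreted and membrane proteins. Of 32 genes of the proteasome and muscle ubiquitin ligases 9 rose and 0 fell (median 0.075), and 8, 9, 8 and 8 rose with RKIP array 1, RKIP array 2, B6 array 1 or B6 array 2 left out, but 2 with a variance without trend. Trim54, the ligase MuRF3, had 3190.4 and 2976 on the RKIP-transgenic arrays and 1342 and 1483 on the B6 arrays (1.10 ± 0.063, adjusted p = 2.2e-06). Its relative Trim63 (MuRF1) had 6527 and 7183 against 5649 and 4733 (0.40 ± 0.075, adjusted p = 0.00680), and Fbxo32 (atrogin-1) 2533 and 2459 against 1747 and 1931 (0.43 ± 0.061, adjusted p = 0.00130). The last 2 did not pass when the variance had no trend (adjusted p up to 0.116 and 0.0587). Psmd2, of the regulatory cap, had 2341 and 2384 against 1732 and 1737 (0.43 ± 0.053, adjusted p = 0.000478).

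Of 25 autophagy and mitochondrial dynamics genes 3 rose and 1 fell. The cargo receptor gene Sqstm1 had 2532 and 2498 against 1467 and 1489.8 (0.75 ± 0.055, adjusted p = 1.5e-05). Bnip3, which marks mitochondria for removal, had 10109 and 10448 against 6536 and 6512 (0.65 ± 0.040, adjusted p = 3.8e-06). Bnip3 was above the GRK-Inh arrays as well (adjusted p = 0.000597).

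Of 24 endoplasmic reticulum chaperone genes 7 rose and 1 fell (median 0.095), with 6, 7, 7 and 6 rising without the 4 arrays in turn and 3 with a variance without trend. Manf, a secreted stress factor of that compartment, had 1309 and 1419.6 against 860.2 and 847 (0.65 ± 0.065, adjusted p = 0.000131) and was below the GRK-Inh arrays at 2187 and 2130.4 (adjusted p = 0.000153). The co-chaperone gene Dnajb9 had 5329.9 and 5331 against 3499 and 3573 (0.59 ± 0.054), and the stress sensor gene Atf6 1934 and 1817 against 1270.3 and 1198 (0.58 ± 0.067). Of 26 heat shock genes 8 rose and 2 fell (median 0.11), with 4, 6, 4 and 7 rising without the 4 arrays in turn and 1 with a variance without trend. Hsp90aa1 rose by 0.31, which did not pass under that variance or when B6 array 1 was left out (adjusted p up to 0.120), and lay -1.02 on the log2 scale from the GRK-Inh arrays (adjusted p = 1.7e-06). Of 20 genes of the integrated stress response 4 rose and 0 fell (median 0.17), and 2, 3, 2 and 2 rose without the 4 arrays in turn and 0 with a variance without trend.

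Of 27 genes of NRF2, the regulator of the oxidant response, and glutathione 7 rose and 0 fell (median 0.044), and 4, 4, 4 and 6 rose without the 4 arrays in turn but 1 with a variance without trend. The glutathione transferase gene Gstm2 had 1041 and 1137 against 683 and 665 (0.65 ± 0.078, adjusted p = 0.000427), a signal that close relatives such as Gstm1 could share. In the 23 RefSeq windows of this list the antioxidant element was in 4, and in 0 of the 6 windows of called members.

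**Figure D5:**
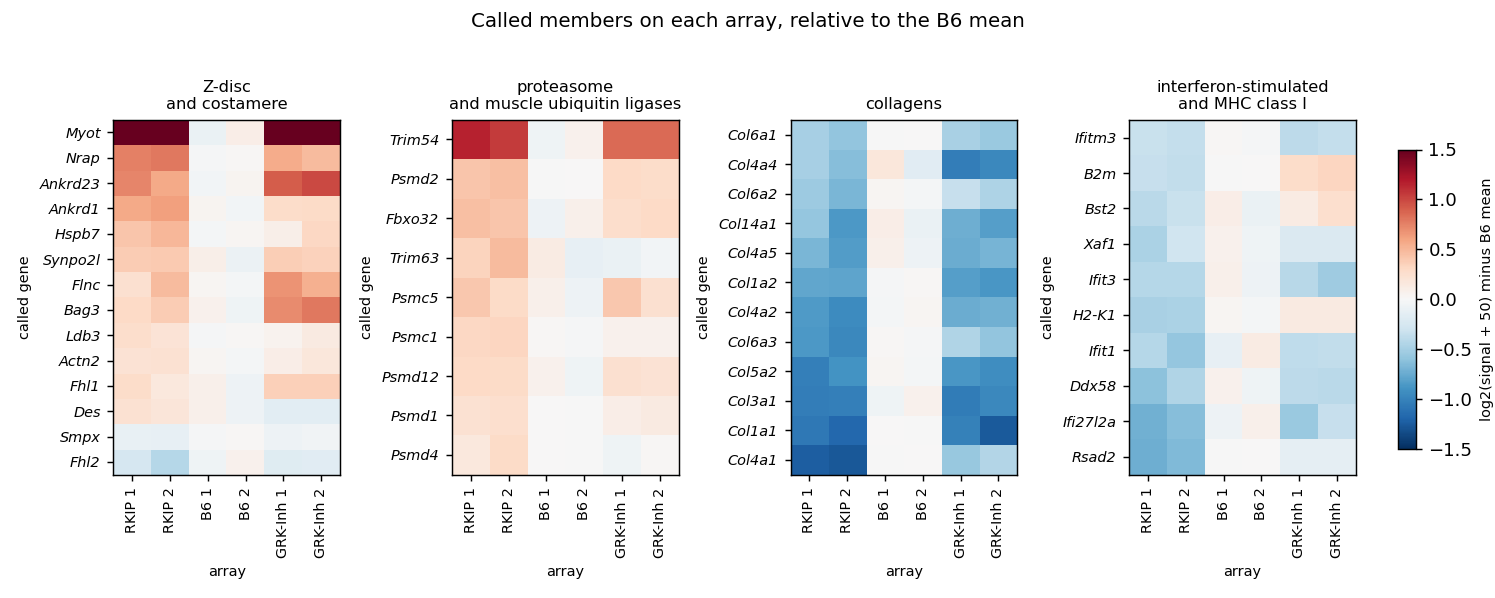
Called members of 4 lists (rows) on the 6 arrays (columns), coloured by log2(signal + 50) minus the mean of the B6 arrays, with the colour scale ending at -1.5 and 1.5. The RKIP-transgenic columns are red for proteasome, ubiquitin ligase and most Z-disc genes and blue for collagen and interferon genes. The GRK-Inh columns have the same colour for most collagens, and the opposite colour for B2m, Bst2 and H2-K1.

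Iron, calcium and channel genes changed gene by gene. Of 24 iron genes 5 rose and 4 fell, and 3, 2, 3 and 2 rose and 3, 5, 3 and 3 fell without the 4 arrays in turn. Beside the fall of Tfrc, Slc40a1, the iron exporter ferroportin, had 1384 and 1417 on the RKIP-transgenic arrays and 936 and 902 on the B6 arrays (0.58 ± 0.066, adjusted p = 0.000289). Alas1, the first enzyme of heme synthesis, fell from 3034 and 2971 to 2006 and 2142 (-0.52 ± 0.060, adjusted p = 0.000313). The ferroxidase gene Cp rose by 0.46, which did not pass when the variance had no trend (adjusted p up to 0.0647). Of 3 tested erythroid markers 0 were called. Alas2 and Hba-a1, genes of red cell precursors, were below the filter on the probe sets used, which had 1 gene symbol. Probe sets with several symbols were left out, so signal that globin genes share on such probe sets is not covered.

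Of 24 ion channel genes 4 rose and 3 fell, and 3, 3, 3 and 3 rose and 3, 1, 2 and 1 fell without the 4 arrays in turn. Kcnv2, a modifier subunit of potassium channels, had 239 and 278 against 119 and 102 (0.94 ± 0.13, and 0.56 to 1.12 over the alternatives). Cacna1c, the pore of the L-type calcium channel, had 1689.6 and 1575 against 1021 and 1082 (0.61 ± 0.081, adjusted p = 0.000855). In its list of 21 calcium handling genes 3 rose and 5 fell, and 3, 2, 2 and 2 rose and 4, 5, 2 and 4 fell without the 4 arrays in turn. Of 19 transporters of water and solutes 4 rose and 4 fell, and 1, 1, 3 and 1 rose and 2, 3, 3 and 2 fell without the 4 arrays in turn. Among the falls was Aqp1, the water channel of capillaries and red cells, from 4366 and 4507 to 3285 and 3090.2 (-0.47 ± 0.049, adjusted p = 0.000171), which the GRK-Inh arrays did not share (4399 and 4319). Of 11 junction genes 1 rose and 1 fell, and of 6 conduction system markers 0 rose and 1 fell.

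Insulin-like growth factor genes fell. Of 24 genes of the growth hormone and STAT axis 2 rose and 7 fell (median -0.054), with 4, 5, 4 and 5 falling without the 4 arrays in turn and 3 with a variance without trend. Igf1, the main growth factor of that axis, had 860.2 and 833 against 1359 and 1305 (-0.62 ± 0.070, adjusted p = 0.000265). Its fetal relative Igf2 had 347 and 319.8 against 779.6 and 869 (-1.19 ± 0.10, adjusted p = 4.2e-05), and the binding protein gene Igfbp3 541 and 564 against 865 and 874 (-0.61 ± 0.077). Igf2 is imprinted, and of 12 tested imprinted growth genes 5 fell and 1 rose (median -0.28), with 5, 2, 2 and 3 falling without the 4 arrays in turn and 2 with a variance without trend. Plagl1, a regulator of that network, fell from 2066 and 1957 to 1201 and 1242 (-0.70 ± 0.064, adjusted p = 7.2e-05), and Impact rose from 507 and 513 to 690.4 and 754 (0.46 ± 0.083). Fibroblast and smooth muscle markers fell beside these genes, and their part was not tested.

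Insulin, mTOR and FOXO genes gave 7 rises and 1 fall of 26 (median 0.10), with 3, 4, 4 and 3 rising without the 4 arrays in turn and 0 with a variance without trend. Over all genes tested 5.32% rose and 5.51% fell, and of the 2814 brightest genes 375 rose and 326 fell. The adaptor gene Irs1, which carries the insulin signal, was the fall of this list, from 1442 and 1415 to 969.6 and 1020.3 (-0.50 ± 0.068, adjusted p = 0.00101). The insulin receptor gene Insr rose by 0.30, which did not pass when the variance had no trend (adjusted p up to 0.0935). Of 23 cell cycle genes 0 rose and 3 fell (median -0.18), and 1, 1, 1 and 1 fell without the 4 arrays in turn and 0 with a variance without trend. Of 27 ribosomal protein genes 0 rose and 3 fell (median -0.068), and 0, 1, 0 and 0 rose and 1, 1, 1 and 2 fell without the 4 arrays in turn.

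Immediate early and hormone-responsive genes did not move as blocks. Of 25 immediate early genes 1 rose and 3 fell. Egr1, a transcription factor switched on by ERK, had 434 and 479.8 on the RKIP-transgenic arrays, 1011 and 1013 on the B6 arrays and 2751 and 3050.2 on the GRK-Inh arrays (-1.07 ± 0.076 against B6, adjusted p = 1.3e-05). Dusp1, a phosphatase of MAP kinases, fell from 2238 and 2441 to 1621 and 1423 (-0.61 ± 0.071), and Klf10 from 942 and 869 to 589 and 599.6 (-0.57 ± 0.080). The orphan receptor gene Nr4a1 rose from 128 and 171 to 361 and 334 (1.00 ± 0.13, and 0.65 to 1.16 over the alternatives). Of 26 glucocorticoid-responsive genes 5 rose and 6 fell (3, 4, 3 and 4 rose and 4, 4, 4 and 4 fell without the 4 arrays in turn), with Glul, the glutamine synthetase gene, rising from 4058 and 4366 to 5959 and 5810.0 (0.48 ± 0.052) and the metallothionein gene Mt2 falling from 1422 and 1328 to 916 and 959.5 (-0.53 ± 0.065). Of 14 core clock genes 0 rose and 1 fell, and of 15 clock output genes 3 rose and 2 fell. Ptgds, an output gene that makes prostaglandin D, rose from 7646 and 7955 to 11952 and 12558 (0.65 ± 0.043, adjusted p = 6.6e-06), and Coq10b, a coenzyme Q binding protein, fell from 1292 and 1240.0 to 833 and 884 (-0.53 ± 0.070).

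The lists not yet counted were 16 citric acid cycle genes, of which 1 rose and 2 fell, and 14 metal transport genes, of which 1 rose and 2 fell. Of 10 epicardial markers 1 rose, of 4 tested skeletal muscle markers 1 rose, of 3 tested lymphocyte markers 1 (Ighm) fell on the probe set used while another of its probe sets rose (0.70, adjusted p = 0.0241), of 6 nerve markers 0 were called, of 4 tested neutrophil and mast cell markers 1 fell, and of 8 thymus and lung markers 1 was tested and not called. In each list of this paragraph with a call, and in the junction, conduction and core clock lists, the count in 1 direction or both fell to 0 with at least 1 of the 4 arrays left out.

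Set against the GRK-Inh hearts, most RKIP-transgenic changes were not told apart. Both comparisons share the RKIP-transgenic arrays, so their values are given side by side and not as independent. Of 11254 genes, 993 (8.82%) were called between RKIP-transgenic and GRK-Inh hearts. Among the 599 genes above control, 160 were also above GRK-Inh, 34 were below it and 405 were not called. Among the 620 below control, 144 were also below GRK-Inh, 28 were above it and 448 were not called. A missing call does not show that the hearts were alike. The 993 calls became 542 and 527 with RKIP array 1 or 2 left out, and 465 and 515 with GRK-Inh array 1 or 2 left out. Abat, Bdh1, Dnm2, Pfkfb2, Myh7 and Ptgds were above, and Car3, Adipoq, Col4a1, Aqp1, Rsad2 and H2-K1 below, both other groups.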

How the data were processed

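RNA of 6 mouse heart samples was measured on Affymetrix arrays, 1 sample per array and 2 arrays per group. The deposited table holds linear probe set intensity values that the authors made with GCOS, per the submitters' processing notes. The values of each array share one trimmed mean (300.002). The scanner files were not used here, and the number of arrays limits the precision.

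Of 45101 probe sets 64 controls were left out, 34945 had 1 gene symbol, 932 several and 9160 none, and 34741 were matched to a current symbol through RefSeq. Values were taken as log2(signal + 50), so fold changes of dim genes are understated. The probe set of highest mean stood for a gene, and genes below a signal of 50.2 (the median of all probe sets) were not tested. Summed signals of marker lists also count members below that level, so they cover 12 atrial, 15 smooth muscle and pericyte and 9 white adipocyte genes. limma 3.58.1 in R 4.3.3 (lmFit and eBayes with a variance trend, 3 residual degrees of freedom) was fitted to the 6 arrays in 3 groups, and calls were made at 0.05 after Benjamini-Hochberg adjustment over all genes tested. Values after ± are standard errors. The fit was tested on simulated data.

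Genes were named by rule: the 15 strongest called rises and falls with no overlap of arrays, for each of 60 lists at most 6 called members by size of change (or, with none called, at most 2 of highest signal), and in any case Acta1, Myh6, Myh7, Nppa, Nppb and Pebp1. B2m and Bst2, named for a figure, were chosen after their values were seen. Lists, members and rule were chosen with earlier results of these data known. Same-numbered arrays did not deviate together (correlations -0.030, 0.026 and -0.035), so replicate numbers were not used as pairs. Figures were drawn with matplotlib 3.10.9.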

Additional observations from a re-analysis of the deposited data

Results flagged for a closer look

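Probe sets without a single gene symbol lay outside the gene comparison, and 2748 of them were tested in the same way. Of these 45 were called higher and 61 lower in RKIP-transgenic hearts (3.86%), and 6 rose by at least 2-fold. The largest of these rises was 1.60 on the log2 scale, with signals of 428 and 444 on the RKIP-transgenic arrays and 113 and 107 on the B6 arrays. The probe set of the next rise (1.23) is listed with several symbols. The other 4, with no symbol, rose by 1.16, 1.13, 1.09 and 1.08.

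For 14 named genes the change from control differed between the transgenic lines, as tested by the difference between RKIP-transgenic and GRK-Inh hearts in limma, and the lines were called in opposite directions against the controls. This difference, RKIP-transgenic minus GRK-Inh on the log2 scale, was -2.54 for Egr1, -1.36 for the phosphatase gene Dusp1 and -0.66 for its relative Dusp6. Among matrix and chaperone genes it was -1.98 for Ccn2, -1.15 for Serpinh1 and -0.94 for the disulfide isomerase gene Pdia4. Among fuel genes it was -1.66 for Scd1, -1.23 for Pdk4 and -0.69 for Mgll. It was -2.52 for the immunoglobulin gene Ighm, and -0.77 for both the metallothionein gene Mt2 and the copper pump gene Atp7a. The cytokine signalling inhibitor gene Cish (0.70) and Ptgds (0.97) had the reverse sign. Between RKIP-transgenic and B6 hearts, 2 of 3 other probe sets of Ighm and 1 of Atp7a had the opposite sign to the one used, and 1 of those of Ighm was called higher (0.70, adjusted p = 0.0241). The call of these genes against B6 was kept in all 17 alternative fits except for Dusp6, which lost it in 9 (adjusted p up to 0.132), Ighm in 6 (up to 0.119), Pdia4 in 5 (up to 0.145), Atp7a in 3 (up to 0.0775) and Cish in 1 (up to 0.0606). Each array left out in turn ended the call of Dusp6. RKIP array 1 and B6 array 1 left out ended those of Ighm, Pdia4 and Atp7a, RKIP array 2 that of Ighm, and B6 array 2 those of Pdia4 and Atp7a. What underlies these differences was not tested.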

How the results depend on the processing

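Of 228 called named genes, 95 kept their call in each of the 17 alternative fits that tested them. The other 133 lost it in at least 1 (122 with a variance without trend, 51 without a filter), and 0 of the 228 changed direction. Against 1219 calls (599 higher, 620 lower) and 993 against GRK-Inh hearts, a variance without trend gave 297 calls (148 higher, 149 lower) and 255 against GRK-Inh. Without a filter 410 genes were lower and 617 differed from GRK-Inh. At an adjusted p under 0.01 there were 519 calls (277 higher, 242 lower) and 416 against GRK-Inh, and under 0.10 there were 933 lower and 1508 against GRK-Inh. Leaving out 1 array at a time gave 621 to 1126 calls, 328 to 552 higher, 275 to 574 lower and 465 to 874 against GRK-Inh. Of the 1219 genes, 1166 were called after quantile normalization, 954 with arrays shifted to one median and 291 with a variance without trend. With the replicate block 1150 genes were called (566 higher, 584 lower) and 905 against GRK-Inh, and the paired numbers are only labels here. The sign of uncalled genes turned on leaving out 1 array: the log2 fold change of Dbh ran from -0.187 to 0.310, that of Sftpc from -0.0855 to 0.166 and that of Pebp1 from -0.0266 to 0.0569. The median of 22 of 59 lists with at least 3 tested members, among them PPAR-responsive, iron, ion channel, cardiomyocyte and macrophage genes, changed sign in at least 1 alternative, so no direction is given for these lists. Dim genes are limited by signal over background: 1.78% of the dimmest and 24.9% of the brightest of 4 equal groups were called, and fold changes of dim genes shrink with an offset of 200.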
